A study of Mus musculus with 2 samples.

Results

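The cells described here are the mural cells of the fraction without GFP, 112 of 3287 kept cell barcodes in 2 libraries of sorted satellite cells. They were chosen by their own UMI counts (unique molecular identifiers, each standing for 1 captured RNA molecule): at least 5 UMIs of Rgs5, Myh11 and Kcnj8 together per 10000 UMIs of the cell, and under 10 per 10000 of the macrophage genes Lyz2, C1qa, C1qb and Tyrobp. Barcodes were kept from 1000 UMIs and 500 genes upward, with a mitochondrial share of no more than 10%. Mural cells are the contractile and supporting cells of the vessel wall: pericytes sit on capillaries inside the basement membrane, and vascular smooth muscle cells ring arterioles, arteries and venules. They depend on PDGF-B from endothelium acting on Pdgfrb, keep a Notch3-dependent identity, and set vessel tone through calcium-driven actomyosin, cyclic GMP and ATP-sensitive potassium channels. In skeletal muscle they lie close to satellite cells, the muscle stem cells, and they take part in the vessel and matrix changes that follow injury.

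Pax3GFP/+ mice, with GFP at 1 allele of Pax3, gave the cells, which were taken from the biceps and recto femoris 5 days after injury. FACS separated a GFP+ and a GFP- fraction, both labelled as satellite cells, and about 20000 cells of each were loaded for droplet-based 3′ single-cell RNA sequencing. The genotype label of both samples is wild-type, and the labels used here leave out the animals' number and age, the injury agent and the surface markers of the sort. With 1 library in each fraction there was no replicate, so no test was made, and the intervals given, at 95%, cover counting error only. The GFP- library had 49709323 UMIs and 2683 kept cells (median 14663 UMIs), and the GFP+ library had 13928952 UMIs and 604 kept cells (median 18534.5 UMIs). The 2 libraries shared 2 kept barcodes, none of them among the mural cells.

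All 112 mural cells lay in the GFP- library, where they made up 4.17% of kept cells (exact binomial interval 3.45% to 5.00%). The GFP+ library had 0 of 604, which allows a share of up to 0.497% by the limit of 3 counts and 0.609% by the exact binomial interval. The rule separated the cells with few near its limit: the 4 lowest members held 7.89, 8.04, 8.06 and 9.47 UMIs of the 3 genes per 10000, the fifth held 24.1, and the highest cells left out held 4.47 and 4.35. In GFP+ the highest value was 1.38 per 10000. One further GFP- barcode passed the mural limit and was left out for its macrophage UMIs. Over all 604 kept GFP+ cells there were 21 UMIs of Rgs5, in 16 cells, 8 of Myh11, 1 of Kcnj8 and 0 of Higd1b, and Rgs5 stood at 1.75 CPM (UMIs per 1000000) there against 9.30 in the empty droplets of the same library.

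**Figure D1:**
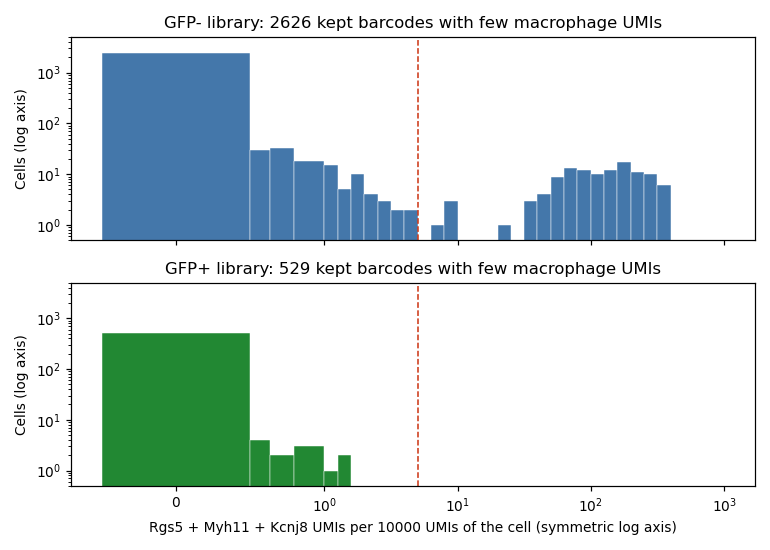
Summed Rgs5, Myh11 and Kcnj8 UMIs per 10000 UMIs of each kept barcode with few macrophage UMIs (horizontal, symmetric log axis), as the number of cells in each bin (vertical, log axis), for the GFP- library above and the GFP+ library below. The dashed line is the limit of 5; the GFP- cells to its right are the 112 mural cells, and no GFP+ cell passes 1.38.

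The mural cells held 1097115 UMIs in all, from 1205 to 39004 in a cell with a median of 8292, and a median of 2816 genes. They were compared with 2450 reference cells of the same library, which were kept cells with almost no UMIs of the mural, macrophage, glial and endothelial genes that define the classes. Myogenic markers stood at 22.4 UMIs per 10000 in them and at 1.21 in mural cells. The reference cells were deeper, with a median of 15094.5 UMIs. Their median mitochondrial share was 4.52%, against 3.60% in mural cells. Levels are the summed UMIs of a gene per 1000000 summed UMIs of the group (CPM), and a gene counted as measured with at least 20 CPM in either sum. Of 6871 measured genes, 1371 (20.0%) were at least 2-fold higher in mural than in reference cells and 609 (8.86%) at least 2-fold lower, and the median log2 ratio over all measured genes was 0.11. These shares are the background against which the counts of each gene list below can be read. The genes of the lists were picked as mural genes, so a high count in them describes the cells and is no test of what they are. A gene under 20 CPM in the reference passed only through the mural cells and could not be called lower. This holds for 20 of the 21 measured identity genes, 23 of 27 vasoactive, 14 of 20 channel and 16 of 22 transcription factor genes. It also holds for 12 of 27 contractile, 17 of 36 secreted factor, 12 of 30 interferon-stimulated and 5 of 17 basement membrane genes. Ratios to a reference near 0 also depend on which cells it holds: against all other kept GFP- barcodes the log2 ratio was 11.03 in place of 13.45 for Higd1b and 8.14 in place of 11.37 for Ednrb.

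The label was checked against 13 mural markers that the rule did not use. All 13 were detected, 12 of them at 20 CPM or more. All 8 myogenic and all 8 endothelial markers were detected too, so detection alone does not set the cells apart. Acta2 gave 5546 of the 15314 UMIs of the 13 mural markers, and it was also found in 88.5% of reference cells. The 112 cells held a median of 128 UMIs of the 13 markers per 10000, from 6.31 upward. The summed level over the mural cells was 140 per 10000, against 20.6 in reference cells, 5.12 in 57 macrophages and 20.4 in empty droplets. The lowest cell lay below the reference and empty-droplet levels. That cell, of 12678 UMIs, held 10 UMIs of Rgs5 and 8 of Acta2 and none of Pdgfrb, Notch3, Myl9 or Igfbp7, so its markers go against the name, and it is a member by the rule alone. Another member, of 1244 UMIs, passed on 1 UMI of Myh11 and held none of Rgs5, Pdgfrb, Acta2, Tagln or Myl9. It held 1 UMI each of Ebf1, Notch3 and Mcam, and counts below among the cells with Myh11 and no Kcnj8. The member at 9.47 UMIs of the rule genes per 10000 held 14.7 myogenic UMIs per 10000. These cells are among those that a rule limit of 10 leaves out, with 108 left. Endothelial markers came to 456 UMIs, 4.16 per 10000 against 0.0329 in reference cells, with 22 cells at 5 per 10000 or more and 29 cells at 0. Esam alone gave 323 of these UMIs, in 82 cells. The reference cells had been chosen for few endothelial UMIs. Macrophage markers came to 13 UMIs in all, with Tyrobp, Ptprc and Adgre1 at 0. Pmp22 was the 1 measured gene of 14 in a longer glial list, at 237 against 66.0 CPM. The glial markers Sox10, Cdh19 and Erbb3 were at 0, and of 4 tenocyte markers 3 were (Scx, Tnmd and Mkx). Of the 8 fibro-adipogenic markers, Pi16 and Clec3b were at 0 and the rest summed to 58 UMIs. A longer list of 20 fibroblast genes had 6 measured and 5 higher, 40.3 against 12.7 UMIs per 10000 in all, namely Gsn, Col1a1, Col3a1, Lpl and Tnfaip6, the last at 505 against 4.46 CPM in 74 cells. The satellite cell label does not describe these cells: Pax7 was seen in 6 of 112 cells, Myod1 in 1 cell and Myog in 6 cells, and 92 cells held no UMI of the 8 myogenic markers.

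The 3 genes that chose the cells are given as a description. Rgs5, which speeds the shut-off of G protein signals from vasoactive receptors, was detected in 109 of 112 cells, with a median of 110 and a maximum of 378 UMIs per 10000. Its summed level was 10947 CPM in mural and 2.51 CPM in reference cells. Myh11, the smooth muscle myosin heavy chain, was detected in 97 cells and ranged from 0 to 89.2 per 10000 with a median of 3.94. Kcnj8, the pore subunit Kir6.1 of the ATP-sensitive potassium channel, was detected in 74 cells and ranged from 0 to 39.7 with a median of 2.30. Rgs5 was therefore present in nearly all of the cells, while Myh11 and Kcnj8 were each missing from some.

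Among 24 pericyte and mural identity genes, 21 were measured and all 21 were at least 2-fold higher in mural cells, with a median log2 ratio of 7.80. Rgs5 and Kcnj8 are among them, and Anpep, P2ry14 and Ggt1 were below the limit, Ggt1 with 0 UMIs in mural cells. Ebf1, a transcription factor of mural and other mesenchymal cells, stood at 731 CPM (105 of 112 cells) against 2.08 CPM, a ratio of 352 (282 to 445). Pdgfrb, the PDGF-B receptor, stood at 521 CPM (106 cells) against 9.19. Cspg4, the NG2 proteoglycan, stood at 281 CPM in mural cells and 7.52 in reference cells. Both classical pericyte surface genes were thus well above the reference level, and neither was found in every cell. Mcam (CD146) was at 480 against 8.21 CPM. Vtn, which encodes vitronectin, was at 598 against 2.77 CPM, and the metalloreductase gene Steap4 at 489 against 1.96 CPM. Aspn, a small leucine-rich proteoglycan, was at 716 against 5.63 CPM, in 102 cells. Cd248 (endosialin) was at 295 against 1.57 CPM.

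Mitochondrial isoform genes typical of mural cells were high, while the list of 18 such and hypoxia-linked genes was mixed: of 13 measured, 5 were at least 2-fold higher and 3 lower. Higd1b had 585 UMIs in 93 mural cells and 2 UMIs in all 2450 reference cells, a ratio of 11174 with an interval from 3080 to 92488. Ndufa4l2, a hypoxia-linked paralogue of Ndufa4, stood at 1236 CPM in mural and 4.46 CPM in reference cells. Its relative Ndufa4 went the other way, at 104 CPM against 819 CPM. Cox4i2, the isoform of cytochrome oxidase subunit 4 linked to oxygen sensing, stood at 268 against 0.93 CPM, while the common isoform Cox4i1 stood at 1041 CPM against a similar level in reference cells, a ratio of 0.813. Epas1, which encodes HIF-2 alpha, was at 367 CPM in 98 mural cells against 1.36 CPM in reference cells.

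**Figure D2:**
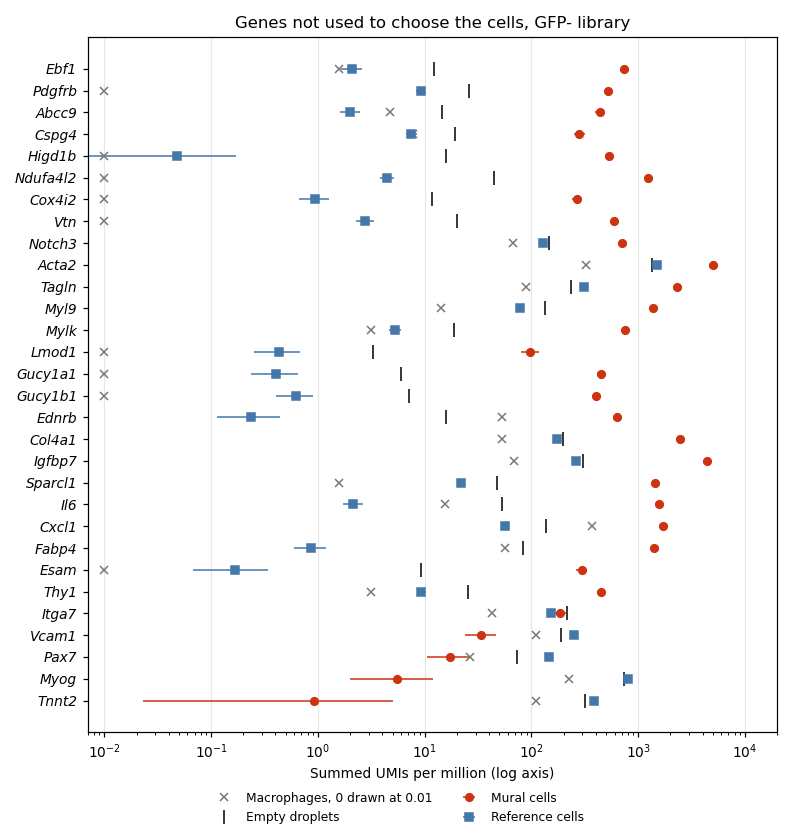
Summed level in CPM (horizontal, log axis) of 30 genes that did not choose the cells, in 112 mural cells (red circles) and 2450 reference cells (blue squares) of the GFP- library with exact Poisson intervals, in 57 macrophages (crosses) and in empty droplets (bars). Mural levels lie above both reference cells and empty droplets from Ebf1 to Thy1, lie next to the reference level for Itga7, and lie below it for Vcam1, Pax7, Myog and Tnnt2.

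Free RNA was measured in droplets of 1 to 100 UMIs. In the GFP- library reference cells, which were chosen for few UMIs of the rule genes, held Vtn at 13.7% of its level in empty droplets, Ndufa4l2 at 10.1% and Higd1b at 0.303%. In the other direction, mural cells held Myog at 0.748% of its level in empty droplets, Tnnt2 at 0.287% and Acta1 at 0.609%.

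The contractile apparatus was broadly present. Of 30 genes, 27 were measured, 23 were at least 2-fold higher in mural than in reference cells and 1 was lower, with a median log2 ratio of 2.52. Myh11, which chose the cells, is 1 of the 23. Acta2, smooth muscle actin, stood at 5055 CPM in 99 mural cells against 1507 CPM, a ratio of 3.36 (3.26 to 3.45). Tagln (SM22) stood at 2323 against 309 CPM, and Tpm2, a tropomyosin, at 2247 against 566 CPM. Mylk, myosin light chain kinase, was at 758 CPM in 104 cells against 5.30 CPM, a ratio of 143 (123 to 167), and Myl9, the light chain it phosphorylates, was at 1378 against 77.5 CPM. Ppp1r14a (CPI-17), an inhibitor of myosin phosphatase, was at 403 against 5.58 CPM. Lmod1, the smooth muscle leiomodin, was at 96.6 against 0.43 CPM. The one lower gene was Des, the intermediate filament desmin, at 498 against 1024 CPM. Tpm1, Actn1 and Crip1 lay between the limits, with Tpm1 at 1853 against 1031 CPM. Cnn1, calponin 1, had 14 UMIs in 8 mural cells and did not reach 20 CPM.

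Within the contractile list, the promoter windows of RefSeq (build GRCm38.p6, from 250 bases before to 50 after each annotated start) were searched on both strands for the CArG box, the motif of serum response factor, which together with its cofactors drives smooth muscle genes. Of the 25 list genes with a window, 5 held a match (20%: Ldb3, Myl6, Myl9, Myom1 and Vcl), against 1.81% of the 27025 genes in the table. These are matches of letters, not sites shown to be bound. The matches with their flanks are shown for the 3 of these genes that were at least 2-fold higher in mural cells and whose window lies at the start of the gene. The capitals mark the CArG box, each sequence runs 5′ to 3′ on the gene's + strand, and the match begins 161 bases before the start in Myl9 (chr2:156775258-156775357), 227 in Vcl (chr14:20929148-20929225) and 99 in Myom1 (chr17:71019413-71019512).
Myl9: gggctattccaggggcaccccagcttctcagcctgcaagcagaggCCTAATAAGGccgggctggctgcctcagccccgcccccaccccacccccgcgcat
Vcl: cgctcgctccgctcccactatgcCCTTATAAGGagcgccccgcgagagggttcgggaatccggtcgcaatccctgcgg
Myom1: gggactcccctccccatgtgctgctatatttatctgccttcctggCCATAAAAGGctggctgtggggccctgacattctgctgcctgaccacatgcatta
The levels of these genes were 1378 against 77.5 CPM for Myl9, 326 against 90.9 CPM for Vcl, which links actin to adhesion sites, and 46.5 against 2.96 CPM for Myom1, which cross-links myosin. The RBPJ motif TGGGAA of Notch signalling, on either strand, was in 9 of 17 identity genes with a window (52.9%), against 28.3% of all genes, and in 9 of 25 contractile genes. A gene with more windows has more places for a match. Counted by window, it was in 34.6% of 26 identity and 30% of 30 contractile windows, against 25.6% of all 32851. The EBF motif (TCCC and GGGA with any 2 bases between, the same on both strands) was in 0 of 17 identity genes and 2 of 25 contractile genes, against 1.06% of all genes. The letters of these last 2 motifs can overlap.

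Of 35 transcription factors linked to mural cells, 22 were measured, and 20 of these were at least 2-fold higher in mural cells with none lower. Beside Ebf1, Ebf2 stood at 129 against 0.17 CPM, and Meox2, a homeobox gene of vascular and limb mesoderm, at 175 against 0.55 CPM. Tbx2 was at 178 CPM, a ratio of 177 (127 to 254), Foxs1 at 88.4 against 6.23 CPM and Nr2f2 at 304 against 22.4 CPM. Foxc2 had 34 UMIs in mural cells and 0 in the reference, so it was at least 433-fold higher by the limit of 3 counts over the reference cells. Myocd, the cardiac and smooth muscle cofactor of serum response factor, had 9 UMIs in 8 mural cells and 0 in the reference, and Srf had 19 UMIs in mural cells. Both were under the limit of 20 CPM, so neither was called higher or lower.

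The Notch pathway was mixed. Of 20 genes 10 were measured, 5 higher and 1 lower. Notch3, the mural Notch receptor, stood at 703 against 129 CPM, a ratio of 5.43 (5.03 to 5.86), and was seen in 105 of 112 cells. Notch1 was near level, at 85.7 against 75.8 CPM, and Notch2 was lower, at 6.38 CPM and a ratio of 0.199 to the reference. The ligand gene Jag1 stood at 94.8 against 15.9 CPM. Among targets, Nrarp was at 109 against 5.30 CPM, Hes1 at 200 against 56.5 CPM, and Nrip2, a nuclear receptor partner kept among the mural Notch genes, at 89.3 against 0.10 CPM. Heyl was at 103 against 135 CPM, and Rbpj was at 50.1 against 70.5 CPM. Of the 7 genes of the PDGF list 4 were measured: Pdgfrb was higher, the ligand gene Pdgfc was lower, at 5.47 against 26.8 CPM, and the ligand gene Pdgfa was at 440 against 241 CPM.

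Of the 30 channel and pump genes that set membrane potential and calcium, 20 were measured, 17 of them at least 2-fold higher and 1 lower, with the rule gene Kcnj8 among the 17. Abcc9, the sulphonylurea receptor SUR2 that pairs with Kir6.1, was at 436 CPM in 81 mural cells, a ratio of 217 to the reference (172 to 278). Abcc9 and Kcnj8 are neighbours on the same strand (mm10, GENCODE M21: Kcnj8 at chr6:142564837-142571614 and Abcc9 at chr6:142587862-142702315). Gja4, connexin 37, was at 282 against 0.12 CPM, and Gjc1, connexin 45, at 497 against 40.3 CPM. The lower gene was Gja1, connexin 43, at 18.2 against 43.0 CPM, and 85.0% of its 20 mural UMIs came from 1 cell. Cacna1c, the L-type calcium channel, had 41 UMIs in 34 cells (37.4 against 0.05 CPM). The sodium pump subunit gene Atp1b2 was at 213 against 1.22 CPM.

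Vasoactive receptors and cyclic nucleotide genes followed the same direction, with 22 of 27 measured genes of 46 at least 2-fold higher, the rule gene Rgs5 among them, and 3 lower. Both subunits of the nitric oxide receptor guanylate cyclase, whose genes lie side by side on chromosome 3, were present: Gucy1a1 at 452 CPM in 96 cells against 0.41 CPM, and Gucy1b1 at 404 CPM in 99 cells against 0.62 CPM. Prkg1, the cyclic GMP kinase downstream, had 109 UMIs in 61 cells, at a ratio of 278 to the reference (161 to 513). Among receptors, Ednrb (endothelin B) stood at 633 CPM in 85 cells against 0.24 CPM, and Ednra (endothelin A) at 160 CPM in 81 cells against 1.55 CPM. Avpr1a (vasopressin), Agtr1a (angiotensin II), Npy1r (neuropeptide Y) and Adra2a (noradrenaline) stood at 104, 66.5, 49.2 and 65.6 CPM, with at most 0.382 CPM in the reference cells. The lower genes were Ramp2, Pde4d and Rgs3, at 16.4, 17.3 and 31.0 CPM against 86.3, 87.7 and 77.8 CPM.

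The mural cells held RNA for their own basement membrane. Of 21 genes 17 were measured, and 12 were at least 2-fold higher with none lower. Col4a1 and Col4a2, the main collagen IV chains, stood at 2483 against 174 CPM and at 1108 against 107 CPM. Lama4 was at 124 against 2.17 CPM, Lamb2 at 198 against 16.0 CPM and Nid1 at 432 against 34.5 CPM. Egflam was at 100.3 CPM in 58 cells against 0.05 CPM. Lama2, the main laminin chain of muscle fibres, was at 65.6 against 88.7 CPM, and Hspg2 (perlecan) at 122 against 142 CPM, both short of the 2-fold limit.

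Interstitial matrix genes were divided: of 36 measured of 42, 20 were at least 2-fold higher and 5 lower. Mgp, an inhibitor of calcification, stood at 2027 against 326 CPM but was found in only 56 of 112 cells. Sparcl1 was in 110 cells, at 1444 against 21.9 CPM. Col6a3 was at 1233 against 82.6 CPM and Col3a1 at 1979 against 660 CPM. The proteases Adamts1 and Adamts4 were at 1189 against 32.3 CPM and at 792 against 62.9 CPM. Lower genes were Loxl1, Lox, Mfap4, Fbln2 and Timp1, which serve elastic fibres or restrain proteases, and Loxl1 was at 32.8 against 201 CPM. Col1a2, Fn1 and Postn lay between the limits.

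Among secreted factors, 36 of 63 were measured, 22 at least 2-fold higher and 7 lower. Il6 had 1734 UMIs in 85 of 112 cells, at 1581 CPM against 2.15 CPM in reference cells, 15.6 in macrophages and 53.2 in empty droplets. Its level per cell ran from 0 to 118 UMIs per 10000 with a median of 8.34. Cxcl1, which draws neutrophils, was at 1719 CPM in 78 cells against 56.6 CPM. Ccl2 was at 448 against 16.1 CPM and at 937 CPM in macrophages, Ccl11 (eotaxin) at 315 against 3.96 CPM in 28 cells, and Cxcl12 at 224 against 6.92 CPM in 75 cells. For Ccl7, 88 UMIs came from 9 cells, 37.5% of them from 1. Igfbp7 was at 4375 CPM in 110 cells against 264 CPM. The guidance factor gene Slit3 stood at 50.1 CPM, with 0.239 CPM in the reference, and the growth factor gene Bmp5 had 83 UMIs in 53 mural cells and 0 in the reference, at least 1057-fold higher by the same limit. Angpt1, the ligand that pericytes are known to send to endothelial Tek, had 11 UMIs, while Angpt2 was at 56.5 against 0.74 CPM. Igfbp3 and Mdk were lower, at 16.4 and 18.2 CPM against 160 and 146 CPM, as was Igf1, at 10.9 CPM and a ratio of 0.321.

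Immediate-early and stress genes, which cell isolation is known to induce, were also high: 18 of 22 measured were at least 2-fold higher and none lower. Fos stood at 1416 against 290 CPM, Nr4a1 at 723 against 17.7 CPM and Atf3 at 377 against 19.4 CPM, and the heat shock gene Hspa1a at 160 against 26.2 CPM. Il6 and Cxcl1 were high beside them, and the part of cell isolation in their levels was not tested. Interferon-stimulated genes were higher for 25 of 30 measured of 35, none lower: B2m stood at 1141 against 287 CPM, Ifitm3 at 3446 against 1191 CPM and Ifi27l2a at 51.0 times its reference level. Of the 30, 12 were under 20 CPM in the reference and could not be called lower. The list came to 100 UMIs per 10000 in mural cells, 30.7 in reference cells and 152 in macrophages.

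**Figure D3:**
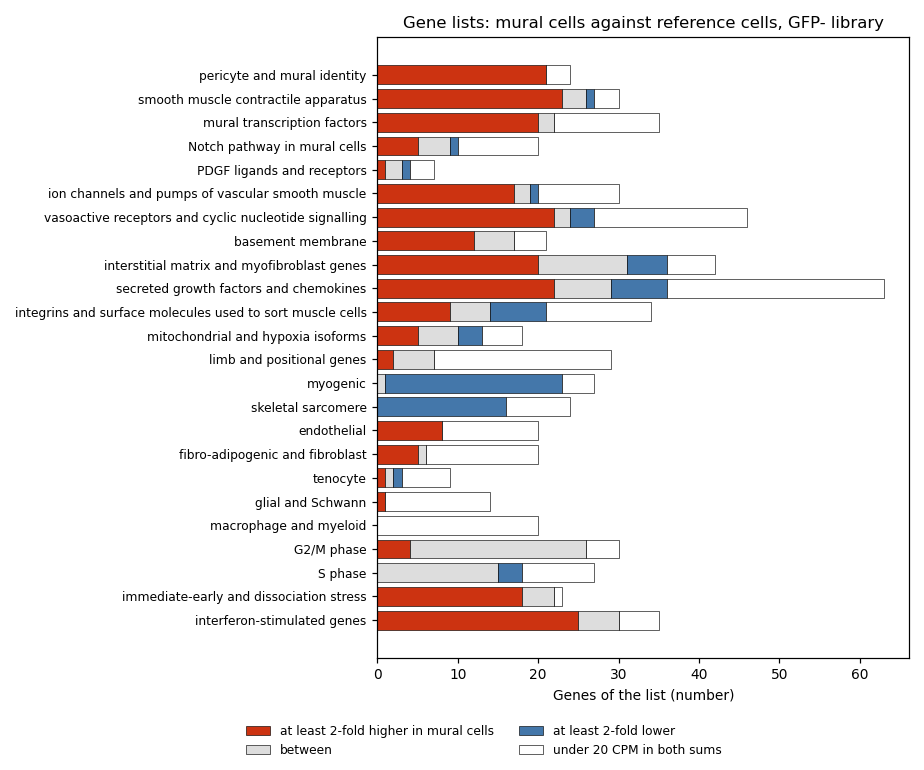
Number of genes (horizontal) in each gene list (vertical) that were at least 2-fold higher in mural than in reference cells (red), at least 2-fold lower (blue), between (grey), or under 20 CPM in both sums (white). Identity, contractile and channel lists are mostly red, the vasoactive list is red for 22 of 46 genes, and the 22 and 16 lower genes of the myogenic and sarcomere lists are blue.

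Surface genes in use for sorting muscle cells were mixed: of 21 measured of 34, 9 were at least 2-fold higher and 7 lower. Itga7, the integrin often used to select satellite cells, stood at 183 CPM in 88 mural cells against 151 CPM in reference cells, a ratio of 1.21 (1.05 to 1.40). Itgb1, another integrin in common use for such sorts, was at 1083 against 314 CPM. Vcam1, the other usual satellite cell antigen, was at 33.7 CPM in 12 mural cells against 252 CPM, and Cdh15 was at 17.3 against 358 CPM. Markers often used to exclude cells were low: Ptprc and Pecam1 had 0 and 20 UMIs, all 20 in 1 cell, and Ly6a had 21 UMIs in 7 cells. Cd34 had 15 UMIs in 3 cells. Thy1 was at 448 against 9.28 CPM and Itga1 at 696 against 5.27 CPM. After every cell was thinned to 3000 UMIs, which left out 16 of the 112 mural cells, Itga7 was seen in 47.9% of mural and 34.7% of reference cells, and Vcam1 in 1.04% and 48.5%. Before thinning, Itga7 was seen in 78.6% of mural and 83.6% of reference cells, and Vcam1 in 10.7% and 84.9%. The antibodies of the sort are not known from the labels used here.

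Genes of the other main lineage were low. Of 27 myogenic genes 23 were measured, and 22 were at least 2-fold lower in mural cells, and of 16 measured sarcomere genes of 24 all were. Myog stood at 5.47 against 808 CPM, Tnnt2 at 0.91 against 383 CPM and Acta1 at 3.65 against 506 CPM. Mymk had 0 UMIs, against 96.0 CPM. Pax3, the gene that carries GFP in these mice, had 0 UMIs in the mural cells, and the reporter feature of the matrices, whose tie to the Pax3GFP allele is not stated in the labels used here, had 0 in all kept cells and empty droplets of GFP-. Six2 had 6 UMIs in 6 mural cells, at 5.47 against 8.02 CPM in reference cells. There were 6 mural cells with at least 5 UMIs per 10000 of Pax7, Myf5, Myod1, Myog, Cdh15 and Chodl, and 95 with none.

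Endothelial genes need to be read cell by cell. The reference was chosen for few endothelial UMIs, so the 8 of 20 genes that were measured passed only through the mural cells and could not be called lower. One cell of 23507 UMIs held 185 UMIs of Pecam1, Cdh5, Emcn, Flt1, Plvap, Egfl7, Kdr and Selp, while no other mural cell held more than 17. That cell held all 30 UMIs of Cdh5 and 93.3% of those of Plvap. In contrast, Esam was in 82 cells (294 against 0.17 CPM), the fatty acid binding gene Fabp4 in 76 cells (1411 against 0.86 CPM), Cd36, a fatty acid transporter, in 73 cells (248 against 0.05 CPM) and Flt1 in 36 cells (79.3 against 0.05 CPM), so these 4 were spread over the mural cells. Against all other kept GFP- barcodes, which include macrophages and the barcodes left out of the reference for endothelial UMIs, the log2 ratios were 4.99 in place of 10.68 for Fabp4, 5.70 in place of 12.34 for Cd36, 7.59 in place of 10.78 for Esam and 5.86 in place of 10.70 for Flt1. Macrophages held Cd36 at 183 CPM.

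Cell cycle UMIs lay mostly in few cells. Mki67, Top2a and Cdk1 together had 425 UMIs, of which 323 lay in 9 cells with a median depth of 20757 UMIs. Summed over all mural cells, 22 of 26 measured G2/M genes were within 2-fold of the reference and 4 were higher. Mki67 was at 130 against 78.3 CPM and Top2a at 124 against 136 CPM. After thinning to 3000 UMIs, Mki67 was seen in 19.8% of mural and 9.08% of reference cells, and Cdk1 in 14.6% and 10.5%, and Top2a in 8.33% and 11.4%. Without the 9 cells, the log2 ratio of Mki67 was -0.48 in place of 0.73. The reference kept its own cycling cells, so a fall was set in advance and the 2 ratios are not alike. In macrophages, 3.85% had Mki67 after thinning.

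The mural cells were also compared by their Myh11 and Kcnj8 UMIs, which took part in choosing them. With at least 1 UMI as the criterion, 32 cells (28.6%, interval 20.4% to 37.9%) had Myh11 without Kcnj8, 65 (58.0%) had both, 9 had Kcnj8 without Myh11 and 6 had neither. The classes are set by detection, and whether they are types or parts of a range was not tested. The 32 cells with Myh11 alone were shallower, with a median of 5555 UMIs against 8946 in the 74 cells with Kcnj8, and had a higher median mitochondrial share, 5.33% against 3.28%. The part of depth and RNA quality in what follows was not tested beyond the regroupings given. Abcc9, which took no part in the grouping, followed Kcnj8: it was found in 72 of the 74 cells with Kcnj8 and in 6 of the 32 with Myh11 alone (452 and 21 UMIs). By a limit of 10 Myh11 UMIs per 10000, chosen after the values were seen, 35 cells were above, of which 24 had neither Kcnj8 nor Abcc9. Below it, 62 cells had some Myh11, 56 of them with Kcnj8 and 59 with Abcc9, and 2 with neither. There were 5 cells from 8 to 10 per 10000 and 5 from 10 to 12.5.

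**Figure D4:**
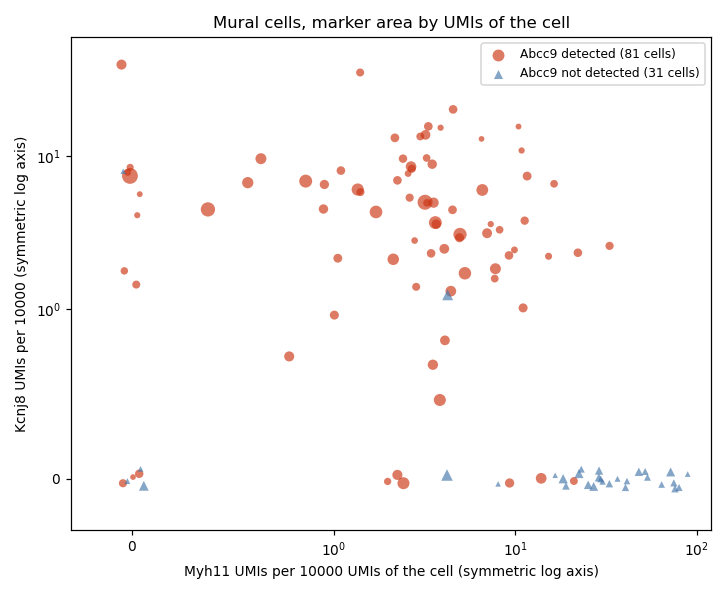
Each of the 112 mural cells by its Myh11 (horizontal) and Kcnj8 (vertical) UMIs per 10000 UMIs of the cell, on symmetric log axes with a small random shift so that cells at 0 can be told apart; area follows the UMIs of the cell. Cells with Abcc9 (81, red circles) lie mostly where Kcnj8 is present, and cells without it (31, blue triangles) lie mostly on the bottom edge at high Myh11.

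Between Myh11 alone and Kcnj8 without Myh11, 688 of 4342 genes with at least 50 CPM in either sum were at least 2-fold higher (15.8%) and 902 lower (20.8%). Since the second class has only 9 cells and 79031 UMIs, single cells decide many of these values: Rgcc, 1 of the genes with the lowest ratios, had 45 UMIs there, all in 1 cell. In this comparison Tagln stood at 4995 against 240 CPM, and 22 of 26 measured contractile genes, Myh11 among them by the grouping, were at least 2-fold higher and 0 lower. A second comparison was therefore added after the data were seen, with all 74 cells that had Kcnj8. In it 378 of 3760 measured genes (10.1%) were at least 2-fold higher in the cells with Myh11 alone and 332 (8.83%) lower. Its values are the ones given below. In it, a gene under 50 CPM in 1 group passed only through the other and could be called only in that direction. This holds, toward the cells with Kcnj8, for 1 of 19 identity, 3 of 17 basement membrane, 3 of 31 interstitial and 3 of 20 interferon-stimulated genes. Toward the cells with Myh11 alone it holds for 0, 1, 1 and 2 genes of the same lists.

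The contractile list was higher in the cells with Myh11 alone for 18 of 27 measured genes and lower for 1, Myh11 itself among the 18. Of the 27, 7 passed only through the cells with Myh11 alone and could not be called lower. Another 1 passed only through the cells with Kcnj8. Tagln stood at 4995 against 1671 CPM, Myl9 at 2589 against 1082 CPM and Mylk at 1465 against 586 CPM. Lmod1 was at 218 against 65.9 CPM, Ppp1r12b, the myosin phosphatase target subunit, at 214 against 39.6 CPM and Synm, an intermediate filament gene, at 135 against 14.4 CPM. Pln, phospholamban, which restrains the calcium pump, had 27 UMIs in 10 of the 32 cells and 0 in the 74 cells. Its partner Atp2a2 was at 671 against 219 CPM. The lower gene was Actg2, at 17.4 against 92.3 CPM. Sorbs2 had the highest ratio of all, with 57 UMIs in 17 of 32 cells and 2 UMIs in 2 of 74 cells, a ratio of 104 (27.4 to 876). Rbm24, an RNA-binding protein of muscle splicing, had 30 UMIs against 2.

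Signalling genes also divided. In the Notch list, Jag1 was at 205 against 63.5 CPM, Nrarp at 270 against 69.5 CPM and Nrip2 at 318 against 28.8 CPM, all higher with Myh11 alone, and Rbpj was at 26.2 against 57.5 CPM. Of 19 measured transcription factors 9 were higher and 0 lower, among them Epas1 at 636 against 303 CPM, Mef2c at 580 against 257 CPM, Tbx2 at 353 against 137 CPM and Foxc1 at 131 against 32.4 CPM. Of the 19, 4 passed only through the cells with Myh11 alone, Foxc1 among them, and could not be called lower. For 1 the reverse held. Of 18 measured channel genes these numbers were also 4 and 1. Among channels, Kcna5, a voltage-gated potassium channel, was at 61.0 against 5.99 CPM and Ano1, a calcium-activated chloride channel, at 240 against 94.7 CPM. P2rx1, an ATP receptor, had 12 UMIs against 2. Of the 18 channel genes 9 were higher with Myh11 alone and 2 lower. Of 21 measured vasoactive genes 2 were higher and 3 lower, and that list came to 154 against 150 UMIs per 10000. Of the 21, 3 passed only through the cells with Myh11 alone and 2 only through the cells with Kcnj8. Fgf1 was at 118 against 5.99 CPM and Igfbp5 at 2676 against 831 CPM. Itga7 was at 309 against 149 CPM, in 25 of 32 and 59 of 74 cells.

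On the Kcnj8 side were some of the pericyte and matrix genes. Of 19 measured identity genes 6 were lower with Myh11 alone, Kcnj8 and Abcc9 included, and none was higher. The identity list came to 215 against 236 UMIs per 10000. Vtn stood at 205 against 717 CPM, Steap4 at 235 against 571 CPM, Art3 at 183 against 402 CPM and Cygb, cytoglobin, at 214 against 451 CPM. Of 17 basement membrane genes 5 were lower, with Col4a1 at 1338 against 2828 CPM and Nid1 at 166 against 511 CPM, while Lama5 was higher, at 192 against 14.4 CPM, as was Lamb2, at 458 against 132 CPM. Of 31 interstitial matrix genes 11 were lower and 4 higher. Col6a1 was at 135 against 826 CPM, Col5a3 at 95.9 against 557 CPM and Mgp at 488 against 2419 CPM. These matrix counts depend on how cells were grouped. With at most 5% mitochondrial UMIs, which left 13 cells with Myh11 alone, 2 basement membrane and 3 interstitial genes were lower. With Myh11 and Kcnj8 read from cells thinned to 3000 UMIs, it was 1 and 1, and 13 contractile genes were higher.

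**Figure D5:**
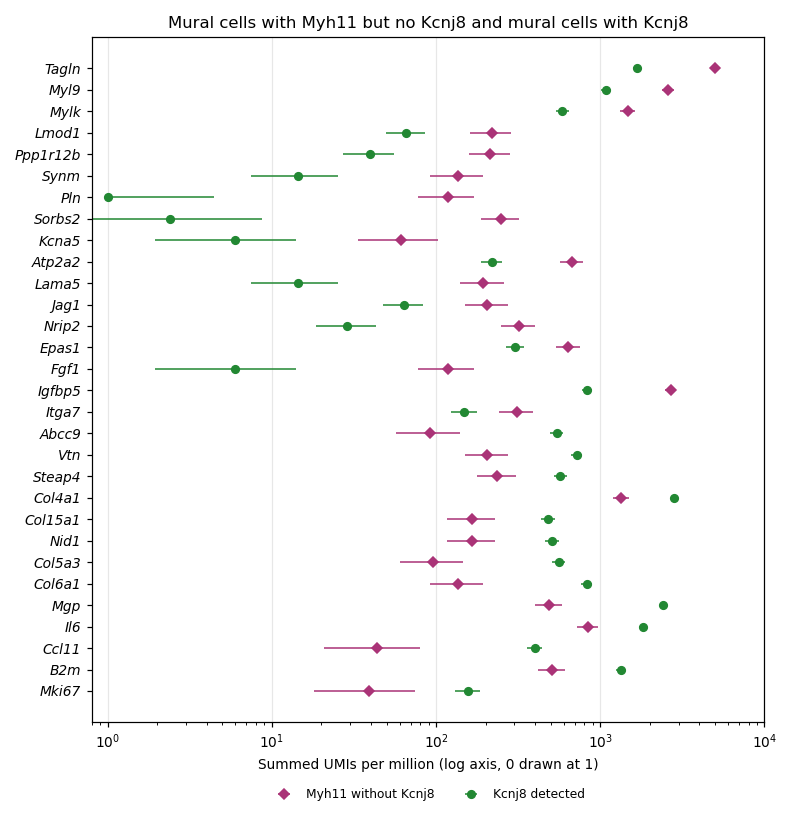
Summed level in CPM (horizontal, log axis) of 30 genes in the 32 mural cells with Myh11 and no Kcnj8 (purple diamonds) and the 74 mural cells with Kcnj8 (green circles), with exact Poisson intervals. Genes from Tagln to Itga7 are higher in the first group, with Pln at 0 in the second, and genes from Abcc9 to Mki67 are higher in the second.

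Of 28 measured secreted factors 6 were higher with Myh11 alone and 5 lower, and the list came to 118 against 120 UMIs per 10000. Among the lower genes, Il6 stood at 837 against 1820 CPM, in 20 of 32 and 62 of 74 cells, and Ccl11 at 43.6 against 399 CPM, in 1 and 26 cells. Of 20 measured interferon-stimulated genes 7 were lower with Myh11 alone and 0 higher, with B2m at 506 against 1331 CPM and Ifitm1 at 52.3 against 207 CPM. All 20 measured G2/M genes were lower, 17 of which passed only through the cells with Kcnj8 and could not be called higher, and the list came to 6.76 against 33.7 UMIs per 10000. Of the 9 cells with at least 10 UMIs of Mki67, Top2a and Cdk1, 8 were among the 74 and 1 among the 32. Of 22 measured stress genes 3 were higher with Myh11 alone and 1 lower: Nr4a1 was at 1242 against 599 CPM and Atf3 at 641 against 307 CPM. Without the cycling cells and the cell with endothelial genes, 429 genes were higher and 362 lower, with 15 contractile genes higher and 11 interstitial genes lower.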

How the data were processed

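The 2 deposited matrices hold UMI counts per gene and barcode, made with Cell Ranger version 4 per the file headers. The submitters' processing notes name Cell Ranger, Seurat and mm10, and the annotation release was not given in the sources used here; 32158 of 32286 features matched GENCODE M21. Counts were summed over cells (scipy 1.17.1 and numpy 2.4.6 under Python 3.11.15) and divided by the group's total to give CPM. Intervals are exact Poisson for levels, exact conditional binomial for ratios and Clopper-Pearson for shares. A gene was called with at least 20 CPM in either sum (50 CPM between groups of mural cells) and a ratio of at least 2 or at most 0.5, with no test, since each fraction has 1 library. Against 0, folds use 3 counts over the group. Reference cells held under 1 mural, 10 macrophage, 10 glial and 10 endothelial UMIs per 10000. Named genes are list genes with at least 20 CPM, the highest and lowest ratios, and genes at 0 that define other cells; list genes named below that limit were chosen after their values were seen. Scrublet, run in scanpy 1.11.5, called 3 of 2683 cells (0.112%) and did not work as a doublet caller, so no doublets were removed; cells with UMIs of a second type are counted in the text. The ratio and interval code was checked on simulated counts. The members and lists were chosen with earlier results of these data known. Some list genes are not reported here. Total depth was 49709323 and 13928952 UMIs.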

Additional observations from a re-analysis of the deposited data

How the results depend on the processing

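No paired analysis was possible because each fraction has 1 library. Of 313 alternative values for the counts, 282 stayed within 1.5 times and 31 did not. Of 676 for 52 named genes, 572 stayed within the counting interval of the main ratio and 104 moved outside it. The 50 CPM filter and its removal cannot alter a gene's ratio, so their values stayed by construction. A reversal was counted only from a main log2 ratio of at least 1 in size, which 3 genes did not reach. By that rule 0 reversed, while Mki67, at 0.73, went to -0.48 without the cycling mural cells, with those of the reference kept. Members numbered 108 and 116 with rule limits of 10 and 3, 102 from 2000 UMIs and 83 with at most 5% mitochondrial UMIs, and GFP+ had 0 under each. The mean over cells gave 5 higher endothelial genes against 8. A filter of 50 CPM gave 819 higher and 318 lower genes, 16 interferon-stimulated genes higher against 25 and 4 endothelial. With no filter other than 1 UMI these were 3382, 1374 and, for endothelial genes, 14. At most 5% mitochondrial UMIs left 13 cells with Myh11 without Kcnj8; interstitial genes lower than in Kcnj8 without Myh11 were 2 against 6, and against all cells with Kcnj8 the lower basement membrane and interstitial genes were 2 and 3. Without members with myogenic UMIs, 1461 genes were lower than in Kcnj8 without Myh11 and 14 contractile genes higher. Asking for at least 2 UMIs gave 16 cells with Kcnj8 without Myh11, 41 with both, 455 lower genes and 1 lower basement membrane gene; against all Kcnj8 cells, 3 basement membrane and 6 interstitial genes were lower. Thinning cells to 3000 UMIs before grouping gave 16 and 26 cells, 302 lower genes, 0 basement membrane and 1 interstitial; against all Kcnj8 cells it gave 227 higher and 123 lower genes, with 1 basement membrane and 1 interstitial. Without cycling cells and the cell with endothelial genes, an alternative chosen after seeing the data, 14 contractile genes were higher and 4 basement membrane genes lower than in Kcnj8 without Myh11. The comparison with all Kcnj8 cells was also chosen after seeing the data. Apart from the smaller number of cells or genes each setting leaves, the cause of these shifts was not tested. The 112 cells and 1 library limit what can be read from low genes.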

Other observations

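Several genes outside the vascular lists were also high in the mural cells. Olfr558, an olfactory receptor family gene, had 180 UMIs in 74 of 112 cells and 2 in reference cells, a ratio of 3438 (938 to 28608). Procr, the protein C receptor, stood at 838 CPM in 82 cells against 0.525 CPM, and Apold1, an early response gene of vessels, at 320 CPM in 83 cells against 0.191 CPM. Trac, the constant segment of the T cell receptor alpha chain, had 23 UMIs in 18 mural cells and 4 in reference cells, while 10 of the 12 lymphoid and erythroid genes were at 0. Of 29 limb and positional genes 7 were measured and 2 were at least 2-fold higher: Shox2 had 45 UMIs in 34 cells (41.0 against 0.477 CPM), and Hoxa7 had 45 UMIs in 30 cells (41.0 against 20.4 CPM).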
